A study of Rattus norvegicus with 16 samples.

Results

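The stomach and the middle part of the intestine were compared in suckling rats that had received obestatin, over 8 of the 16 arrays of the series: the 4 arrays of the OH stomach group and the 4 arrays of the OH middle intestine group, chosen by their labels and not by any measured value. OH rats were Wistar rats, Wistar Han by the study's methods, given obestatin at 250 nmol/kg BW by the enteral route from day 14 of life, 2 doses each day, and killed on day 21. Each group held 4 rats, and the labels do not say whether a stomach and an intestine came from the same rat. The other 8 arrays held the same tissues of C rats, which received saline solution on the same days, 4 arrays of stomach and 4 of middle intestine. Obestatin was thus common to both sides of the main comparison, so that the differences below are between tissues and say nothing of obestatin by themselves. The C arrays served to show whether the tissue difference itself differed between OH and C rats.

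Each array was a two-colour Agilent rat array with the RNA of the tissue of 1 rat in Cy5 and a common reference, a pool of total RNA from both tissues of all rats as labelled, in Cy3. The measured value is the log2 ratio of Cy5 to Cy3, so 0 is a signal equal to that of the pool and a difference of 1 between tissues is a factor of 2. Some genes lay below 0 in every group. The means of the gene Ass1 were -2.12 and -2.19 in OH stomach and intestine and -2.21 and -2.75 in C stomach and intestine. Neither the content of the pool nor dye bias was tested. A gene that passed had a limma p, adjusted over all probes tested, under 0.05, and such p-values measure the spread between arrays of a group, taken over all 16 arrays. Stomach minus middle intestine is given throughout: positive values are higher in stomach, and negative values higher in intestine. The 4 OH stomach arrays lay on 1 slide and the 4 OH middle intestine arrays on another, both scanned on the same day, so tissue and slide cannot be told apart. Median raw Cy5 signals were 235 to 328 scanner units on the OH stomach arrays and 163 to 272 on the OH middle intestine arrays, and no spot was saturated. The RNA came from pieces of whole tissue, in which fewer cells of a type and less RNA per cell cannot be told apart.

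The rat stomach has a forestomach lined by stratified squamous epithelium and a glandular part. In the glandular part, chief cells secrete pepsinogens, parietal cells secrete acid, surface and neck cells secrete mucus, and endocrine cells release ghrelin, histamine and gastrin. Obestatin is cut from the same precursor as ghrelin, which the gene Ghrl encodes. The middle intestine is lined by enterocytes that carry hydrolases and transporters on their brush border, together with goblet, Paneth and endocrine cells, and at the end of suckling it still digests milk lactose and fat.

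Of 21174 probes that were tested, 8090 differed between OH stomach and OH middle intestine by limma with Benjamini-Hochberg adjustment at 0.05, which is 38.2%. The calls were evenly split, with 4056 probes (19.2%) higher in stomach and 4034 (19.1%) higher in middle intestine, and the median difference over all probes was 0.01. With 1 probe per gene, 2815 of 13575 genes (20.7%) were higher in stomach and 2845 (21%) were higher in middle intestine. In 2577 genes (19%) every stomach array lay above every intestine array, and in 2631 genes (19.4%) the reverse held. These shares are the background against which the counts below are read. Differences of 5 or more were found for 86 probes higher in stomach and 94 higher in intestine. Log2 ratios of replicate arrays correlated across probes at r of 0.71 to 0.91 in OH stomach and 0.77 to 0.87 in OH middle intestine, against 0.07 to 0.25 between the tissues.

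**Figure D1:**
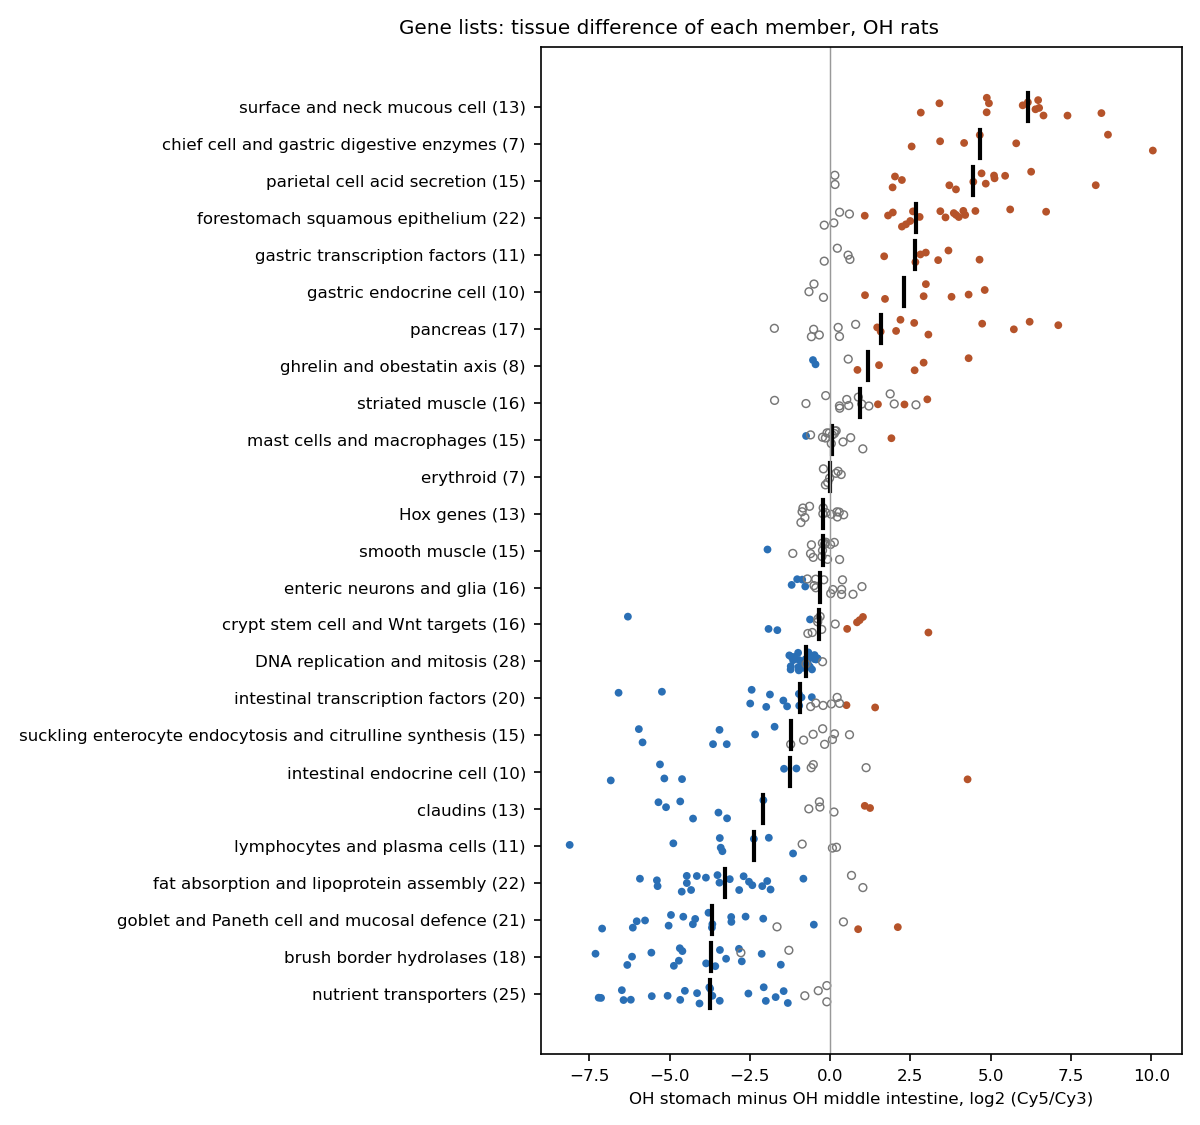
Stomach minus middle intestine difference (x axis, log2) for each tested member of 25 gene lists (rows, number of members tested in brackets) in OH rats. Filled points passed the test (orange higher in stomach, blue higher in intestine), open points did not, and the black bar is the list's median, which ran from 6.16 in surface and neck mucous cell genes to -3.74 in nutrient transporters.

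All 7 chief cell and digestive enzyme genes that could be tested were higher in stomach, with a median of 4.66 against 0.01 over all probes. Chia, the acidic chitinase of chief cells, had the largest difference in the ratio of the genes named here. Its log2 ratios were 2.79, 5.60, 5.00 and 5.28 on the OH stomach arrays and -5.10, -5.20, -6.11 and -5.13 on the OH middle intestine arrays, so that the groups were far apart although the first stomach array was lower than the others. The difference was 10.05 ± 0.66 (SE, n = 4 and 4; limma adjusted p = 2.23e-08). Cblif, the gastric intrinsic factor that binds vitamin B12, gave 2.69, 4.88, 4.32 and 4.29 in stomach and -4.69, -4.96, -4.19 and -4.59 in intestine, a difference of 8.65 ± 0.46 (limma adjusted p = 2.44e-09). The stomach array with the lowest Chia was also the lowest for Cblif.

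Pepsinogen C (Pgc) was the steadiest of the group, with 2.81, 2.73, 2.75 and 2.61 in stomach and -2.07, -2.08, -1.71 and -1.89 in intestine, a difference of 4.66 ± 0.12 (limma adjusted p = 2.80e-12). The milk-clotting enzyme chymosin (Cym), the aspartic protease Ctse, pepsinogen A (Pga5) and the secretory cell transcription factor Bhlha15 followed with 4.17, 5.79, 3.42 and 2.54. The Cy3 signal was higher on the stomach slide for Pgc (1.63) and lower for Cym (-1.75). In Cy5 alone these 2 genes differed by 6.29 and 2.42. The mean of the 7 genes was 1.21, 3.02, 2.42 and 2.74 on the stomach arrays and lay between -3.36 and -3.21 on the intestine arrays.

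Among genes of acid secretion by parietal cells, 13 of 15 were higher in stomach and 2 did not pass, with a median of 4.46. Kcne2, the beta subunit of the potassium channel that recycles potassium to the proton pump, gave 2.62, 3.43, 3.80 and 3.35 in stomach and -5.33, -5.27, -4.52 and -4.77 in intestine, a difference of 8.27 ± 0.28 (limma adjusted p = 2.09e-11). The proton pump itself differed by 5.45 ± 0.29 for its beta subunit Atp4b and by 3.92 ± 0.20 for its alpha subunit Atp4a. All 4 stomach arrays lay above all 4 intestine arrays for these 3 genes.

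The gastrin receptor Cckbr was not well above background on any OH intestine array and was at least 67.9-fold higher in stomach. The same held for the anion exchanger Slc26a7, at least 25.5-fold, for the nuclear receptor Esrrg, at least 16.7-fold, and for the potassium channel Kcnj15, at least 9.4-fold. Such bounds compare Cy5 signals alone and are open to dye bias, since no dyes were swapped. They do not bound the ratio from below: for the intestinal gene Adgrg7 the bound was 217-fold, while its ratio differed 212-fold. The chloride channel genes Clic6 and Slc26a9 and carbonic anhydrase 2 (Car2) differed by 5.10, 4.85 and 4.46. The bicarbonate exchanger Slc4a2 and the muscarinic receptor Chrm3, which are not confined to parietal cells, gave 0.15 ± 0.18 and 0.15 ± 0.14 and did not pass.

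All 13 tested genes of surface and neck mucous cells were higher in stomach, with the largest list median, 6.16. The gastrokine Gkn2, a secreted protein of surface cells, gave 2.58, 3.66, 3.61 and 3.31 in stomach and -5.31, -5.45, -4.87 and -5.01 in intestine (difference 8.45 ± 0.23, limma adjusted p = 2.83e-12). Its partner Tff1, a trefoil peptide, gave 2.08, 2.90, 2.80 and 2.38 and -4.14, -4.31, -3.95 and -4.03 (difference 6.64 ± 0.22). Both genes were far apart between the tissues on every array, but part of each difference lay in the reference channel. On the Cy5 channel alone, Gkn2 differed by 5.70 and Tff1 by 4.06, and their Cy3 signals were lower on the stomach slide (-2.75 and -2.59).

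The secreted gel-forming mucin Muc5ac was not well above background on any OH intestine array and was at least 302-fold higher in stomach in Cy5. As a ratio it differed by 4.95 ± 0.24, and its Cy3 signal was also higher on the stomach slide, by 4.00. The membrane mucin Muc1, the adhesion protein Vsig1, the tight junction protein Cldn18 and the water channel Aqp5 differed by 6.48, 6.51, 6.00 and 4.87. For Cldn18 the stomach arrays were at 1.47, 1.93, 2.21 and 1.68 and the intestine arrays at -4.01, -4.50, -3.87 and -4.32. The calpains Capn8 and Capn9 of surface mucous cells were lowest, with 3.40 and 2.82.

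The 250 bases before the start of 2 stomach genes are shown because they head the chief cell and mucous cell lists. They are RefSeq sequences of the GRCr8 build, with matches to 6 short motifs in capitals. The letters searched on both strands were GTTAAT for the factor HNF1, a part of its site, CAAAGTC for the nuclear receptor HNF4, TTTATG for CDX factors, AGATAA for factors of the GATA family, AAGGTCA for receptors of the ESRR family and TATAAA for the TATA box.
Chia, chr2:196302437-196302686, plus strand: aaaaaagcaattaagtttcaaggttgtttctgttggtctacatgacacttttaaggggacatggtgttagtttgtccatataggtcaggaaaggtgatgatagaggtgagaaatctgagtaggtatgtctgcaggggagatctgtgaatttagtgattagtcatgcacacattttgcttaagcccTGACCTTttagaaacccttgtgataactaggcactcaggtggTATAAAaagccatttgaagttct
Gkn2, chr4:121375344-121375593, plus strand: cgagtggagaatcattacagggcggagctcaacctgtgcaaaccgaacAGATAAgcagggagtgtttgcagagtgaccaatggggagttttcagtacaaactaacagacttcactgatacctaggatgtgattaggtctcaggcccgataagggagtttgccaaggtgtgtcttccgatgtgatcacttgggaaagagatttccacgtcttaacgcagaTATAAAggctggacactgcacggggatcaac
The Chia window holds the ESRR letters 65 bases and the TATA letters 23 bases before the start, and the Gkn2 window holds the GATA letters 202 bases and the TATA letters 31 bases before it. Over all 27457 promoters of the table, 3.77% hold the ESRR letters, 10.05% the GATA letters and 13.1% the TATA letters. A match is a description of the letters only.

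Of 10 genes of gastric endocrine cells, 7 were higher in stomach and 3 did not pass, with a median of 2.31. The precursor of ghrelin and obestatin, Ghrl (rn4, chromosome 4, 149623700 to 149625652, as the array design places its probe), gave 2.55, 3.88, 3.41 and 3.53 in stomach and 0.25, -1.03, -1.89 and -1.19 in intestine. The stomach group lay wholly above the intestine group, in which the first array was the highest, and the difference was 4.31 ± 0.39 (limma adjusted p = 7.59e-07). Histidine decarboxylase (Hdc), which makes histamine, gave 2.28, 4.03, 3.49 and 3.27 and -1.97, -1.67, -1.22 and -1.32 (difference 4.81 ± 0.34). The vesicular transporter Slc18a2 of the same cells differed by 2.98, the secretory granule gene Chga by 1.71 and somatostatin (Sst) by 1.09.

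Gastrin (Gast), the antral hormone that drives acid secretion, stood apart from the rest of the list. It gave 3.82, 3.34, 3.92 and -2.02 on the stomach arrays and -1.02, -1.51, -1.73 and -1.79 on the intestine arrays, so that the fourth stomach array lay below every intestine array and the groups overlapped. The difference of 3.78 ± 1.40 passed narrowly (limma adjusted p = 0.0458). Without stomach replicate 4 it was 5.21 (limma adjusted p = 0.00411), and without any 1 of the other 7 OH arrays it did not pass, with differences of 3.23 to 3.95.

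The ghrelin and obestatin axis has 8 testable genes, of which 5 were higher in stomach, 2 were higher in intestine and 1 did not pass. Mboat4, the enzyme that adds the fatty acid to ghrelin, gave 1.03, 2.44, 2.27 and 1.51 in stomach and -0.50, -1.70, -0.74 and -1.44 in intestine (difference 2.91 ± 0.33, limma adjusted p = 7.41e-06). Glp1r, the glucagon-like peptide 1 receptor, which has been proposed as a receptor of obestatin, was at 2.52, 2.49, 3.04 and 3.02 and 0.13, 0.50, -0.03 and -0.05 (difference 2.63 ± 0.17). Gpr39, another proposed receptor, was also higher in stomach, by 0.85 ± 0.16 (limma adjusted p = 7.34e-04). With the arrays scaled to a common spread, Gpr39 gave 0.57 and did not pass (limma adjusted p = 0.383).

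The prohormone convertases differed less. Pcsk2 gave 0.63, 1.68, 2.32 and 1.59 in stomach and -0.42, -0.67, -0.33 and 1.56 in intestine, where the fourth array was as high as the stomach arrays, and its difference of 1.52 ± 0.49 passed (limma adjusted p = 0.0234). Without stomach replicate 2 or 3, or without intestine replicate 1, 2 or 3, Pcsk2 did not pass, with differences of 1.27 to 1.48. Pcsk1, which cuts proghrelin, gave 0.56 ± 0.31 and did not pass (limma adjusted p = 0.17). The kinase genes Mapk3 and Map2k3 were slightly higher in intestine (-0.46 ± 0.11 and -0.54 ± 0.14, limma adjusted p = 0.00377 and 0.00904), with no overlap between the arrays of the tissues in either gene. With scaling, Map2k3 gave -0.56 and did not pass (limma adjusted p = 0.0709). The ghrelin receptor gene Ghsr was on the array but not well above background on all 4 arrays of any group, and was not tested.

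**Figure D2:**
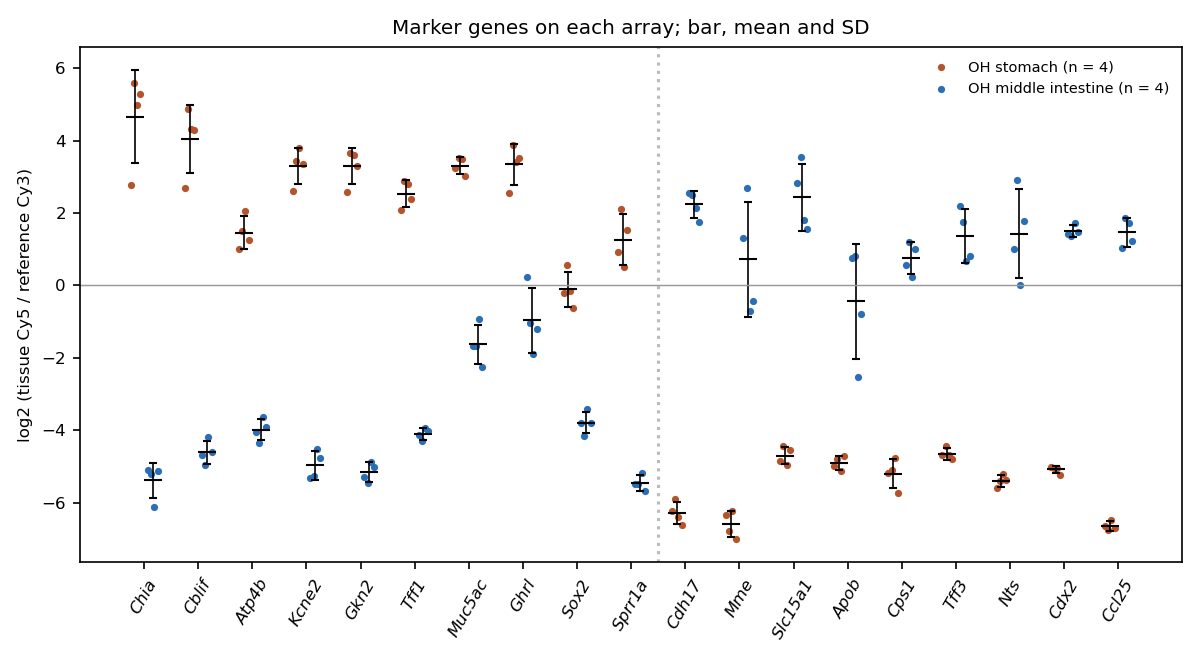
Log2 ratio of tissue to reference (y axis) of 19 marker genes on each of the 8 OH arrays (points), with the mean and SD of each group of 4. The 10 genes left of the dotted line were higher in stomach and the 9 right of it higher in middle intestine, and the groups do not overlap in any of them.

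Genes of the squamous forestomach were higher in stomach in 18 of 22 cases, with a median of 2.68, and the other 4 did not pass. The cornified envelope gene Sprr1a gave 0.92, 2.13, 0.50 and 1.53 in stomach and -5.48, -5.50, -5.17 and -5.68 in intestine (difference 6.73 ± 0.38, limma adjusted p = 4.90e-09). Calml3 and Krtdap, genes of keratinocyte differentiation, and the desmoglein Dsg3 were not well above background on any intestine array and were at least 44.9, 15.3 and 12.8-fold higher in stomach. Loricrin (Lor), Lgals7 and Sbsn differed by 4.01, 4.21 and 4.15. The second stomach array was the highest for the list, whose means were 0.05, 1.04, 0.16 and 0.42 on the stomach arrays. The basal cell factor Tp63 (0.11 ± 0.12), desmoplakin Dsp (0.29 ± 0.20), Ly6d (0.60 ± 0.58) and Tgm3 (-0.18 ± 0.58) did not pass.

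Transcription factors of the stomach were higher there in 7 of 11 cases, with a median of 2.65. Sox2, which patterns the foregut, gave -0.21, 0.56, -0.16 and -0.62 in stomach and -3.80, -4.15, -3.42 and -3.80 in intestine (difference 3.68 ± 0.24, limma adjusted p = 2.02e-08). Irx2, Irx3 and Irx5 of the Iroquois family differed by 4.65, 2.65 and 2.81, and Foxq1, a factor of the surface mucous cells, by 2.98. Barx1, a factor of the stomach mesenchyme, differed by 3.36 ± 0.47 but varied widely within the stomach, with 1.09, -1.02, -1.77 and 0.57. These Barx1 values had the same order over the 4 stomach arrays as the mean of the smooth muscle genes given further on. Osr1, Nkx3-2, Six2 and Nkx6-3 did not pass with all arrays, with values from -0.18 to 0.62.

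On the intestinal side, 16 of 18 hydrolases of the brush border were higher in middle intestine, with a median of -3.72. Mme, the neutral endopeptidase neprilysin, gave -6.35, -6.78, -6.22 and -7.00 in stomach and 1.31, 2.69, -0.70 and -0.42 in intestine, a difference of -7.31 ± 0.60 (limma adjusted p = 2.41e-07). The first and second intestine arrays were well above the other 2, while all lay far above the stomach. Sucrase-isomaltase (Si), which digests sucrose and appears in enterocytes towards weaning, was not well above background on any stomach array and was at least 285-fold higher in intestine in Cy5. Its ratios were 0.78, -0.27, 0.04 and 0.61 in stomach and 6.76, 6.88, 6.69 and 6.10 in intestine, a smaller difference of -6.32 ± 0.53, and its Cy3 signal was higher on the intestine slide as well (-2.47). Lactase (Lct), the enzyme of milk sugar, gave -3.60, -3.65, -3.41 and -3.93 in stomach and 0.06, 1.55, -1.86 and -0.62 in intestine (difference -3.43 ± 0.50, limma adjusted p = 7.50e-05). Its intestine arrays did not overlap with the stomach but had an SD of 1.42.

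The 250 bases before the start of these 2 disaccharidase genes are shown because lactase and sucrase mark the suckling and the weaned enterocyte. They come from RefSeq, build GRCr8, with the same 6 motifs in capitals.
Si, chr2:159884903-159885152, minus strand: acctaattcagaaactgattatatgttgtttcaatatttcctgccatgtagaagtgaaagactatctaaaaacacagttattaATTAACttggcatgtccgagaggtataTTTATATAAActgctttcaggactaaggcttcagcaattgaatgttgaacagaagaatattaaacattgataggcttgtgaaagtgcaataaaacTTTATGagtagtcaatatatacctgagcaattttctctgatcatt
Lct, chr13:42376873-42377122, minus strand: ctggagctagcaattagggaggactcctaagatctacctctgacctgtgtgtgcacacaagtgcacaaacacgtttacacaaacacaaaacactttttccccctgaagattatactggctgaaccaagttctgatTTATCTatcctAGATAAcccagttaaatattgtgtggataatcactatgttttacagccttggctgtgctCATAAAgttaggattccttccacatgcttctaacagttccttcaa
The Si window holds the HNF1 letters 167 bases before the start, the TATA letters, overlapping on both strands, 140 and 136 bases before it, and the CDX letters 45 bases before it. The Lct window holds the GATA letters 115 and 104 bases and the CDX letters 45 bases before the start. Over all promoters of the table, 6.46% hold the HNF1 letters and 11.2% the CDX letters. The CDX letters were thus 45 bases before the start in both disaccharidase windows, on opposite strands. As above, a match describes the letters only.

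Of the other hydrolases, the meprin subunit Mep1b, the aminopeptidase Xpnpep2 and alkaline phosphatase (Alpi) were higher in intestine by 6.17, 5.57 and 4.71. Maltase-glucoamylase (Mgam) was not well above background on any stomach array and was at least 22.6-fold higher in intestine. Trehalase (Treh) and dipeptidyl peptidase 4 (Dpp4) were higher by 3.86 and 1.54. Enteropeptidase (Tmprss15) gave -2.78 ± 1.13 and aminopeptidase N (Anpep) -1.29 ± 0.65, and neither passed (limma adjusted p = 0.0656 and 0.133). Without intestine replicate 3 all 18 hydrolases passed.

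Nutrient transporters were higher in intestine in 21 of 25 cases, with a median of -3.74. The peptide transporter Slc15a1 gave -4.86, -4.45, -4.95 and -4.54 in stomach and 2.82, 3.55, 1.80 and 1.57 in intestine (difference -7.14 ± 0.43, limma adjusted p = 9.04e-09). The glucose transporter Slc2a2 of the basolateral membrane, the cystine carrier Slc7a9 and its partner Slc3a1 were higher by 6.49, 6.43 and 5.56. The sodium-glucose transporter Slc5a1 and the fructose transporter Slc2a5 were higher by 3.67 and 4.07. The phosphate transporter Slc34a2 and the sulphate transporter Slc13a1 were not well above background on any stomach array and were at least 46.3 and 26.1-fold higher in intestine.

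S100g, the calcium binding protein calbindin D9k, gave the largest difference of the list and the widest spread. Its ratios were -6.37, -6.43, -6.57 and -6.73 in stomach and 4.46, 0.30, -1.57 and -0.47 in intestine, where the first array stood far above the other 3 (difference -7.21 ± 0.89, limma adjusted p = 1.60e-05). The calcium channel Trpv6 (-0.10 ± 1.29), the amino acid transporter Slc6a20a (-0.10 ± 0.34), the ferric reductase Cybrd1 (-0.37 ± 0.37) and the nucleoside transporter Slc28a1 (-0.79 ± 0.46) did not pass.

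Genes of fat absorption and lipoprotein assembly were higher in intestine in 20 of 22 cases, with a median of -3.29. The sterol exporter Abcg5, the cholesterol importer Npc1l1 and the ileal bile acid binding protein Fabp6 were higher by 5.92, 5.37 and 5.40. Apob, the structural protein of chylomicrons, gave -4.99, -4.78, -5.13 and -4.71 in stomach and 0.76, 0.82, -2.54 and -0.79 in intestine (difference -4.47 ± 0.54, limma adjusted p = 1.41e-05), and its loading protein Mttp differed by -4.46. Apoa1, Apoa4, Apoc2 and Apoc3 were higher in intestine by 3.51, 2.53, 4.33 and 2.83. The fatty acid transporter Cd36 (0.67 ± 0.29) did not pass. With the arrays scaled to a common spread, 7 of the 22 passed.

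The enterocyte lists varied together within the OH middle intestine group. The hydrolase mean was 1.30, 2.03, 0.06 and 0.27 on its arrays, the transporter mean 1.91, 1.38, 0.04 and 0.38 and the fat absorption mean 0.36, 0.49, -1.15 and -0.31. The first and second arrays were high and the other 2 low in all 3 lists. On the stomach arrays the same means hardly varied, from -3.15 to -3.01 for hydrolases, from -2.79 to -2.53 for transporters and from -3.27 to -3.24 for fat absorption.

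Of 15 genes of milk protein uptake and citrulline synthesis, 7 were higher in intestine and 8 did not pass, with a median of -1.23. The mitochondrial enzymes Cps1, Otc and Oat, which lead from ammonia and glutamate to citrulline, were higher by 5.96, 5.84 and 3.45, and Aldh18a1 by 1.73. For Cps1 the stomach arrays gave -5.19, -5.09, -4.77 and -5.74 and the intestine arrays 0.57, 1.20, 0.24 and 1.02. The next 2 enzymes of the pathway, Ass1 and Asl, gave 0.07 ± 0.19 and 0.13 ± 0.17 and did not pass. Cubilin (Cubn) and amnionless (Amn), which form the endocytic receptor for intrinsic factor, were higher in intestine by 3.22 and 3.65. Prdm1, a repressor of the adult enterocyte programme, was higher by 2.34. The neonatal Fc receptor Fcgrt (-1.23 ± 0.47), Lrp2 (-0.23 ± 0.56) and Dab2 (-0.83 ± 0.47) did not pass.

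Goblet cell, Paneth cell and defence genes were higher in intestine in 17 of 21 cases, with a median of -3.68. The goblet cell trefoil peptide Tff3 gave -4.70, -4.44, -4.69 and -4.81 in stomach and 2.21, 1.76, 0.68 and 0.81 in intestine (difference -6.02 ± 0.33, limma adjusted p = 4.23e-09). The gel-forming mucin Muc2 was not well above background on any stomach array and was at least 29.3-fold higher in intestine. Lysozyme (Lyz2), the lectin Zg16 and the guanylin gene Guca2a were higher in intestine by 5.03, 4.28 and 4.57, and the secretory lineage factor Atoh1 by 3.08.

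The antimicrobial genes differed more in Cy5 alone than in the ratio. Reg3b gave -1.43, -1.23, -2.11 and -0.84 in stomach and 6.68, 6.09, 5.08 and 4.96 in intestine, a ratio difference of -7.10 ± 0.49 and a Cy5 difference of -8.74. The Paneth cell defensin Defa24 differed by -5.76 ± 0.60 as a ratio and by -11.13 in Cy5 alone, and the lectin Itln1 by -6.15 ± 0.27 and -10.24. The Cy3 signal of Defa24 and Itln1 was higher on the intestine slide as well (-5.37 and -4.10), while the Cy3 difference of Reg3b, -1.64, did not pass (limma adjusted p = 0.0679). Defensins are a family of near-identical genes, so single members are uncertain. Against the direction of the list, Agr2, a disulphide isomerase of mucous cells, was higher in stomach by 2.11 ± 0.40, and the goblet factor Spdef by 0.87 ± 0.28 (limma adjusted p = 7.53e-04 and 0.0239). Spdef did not pass without stomach replicate 2 or 3 or intestine replicate 4 (0.68 to 0.81).

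**Figure D3:**
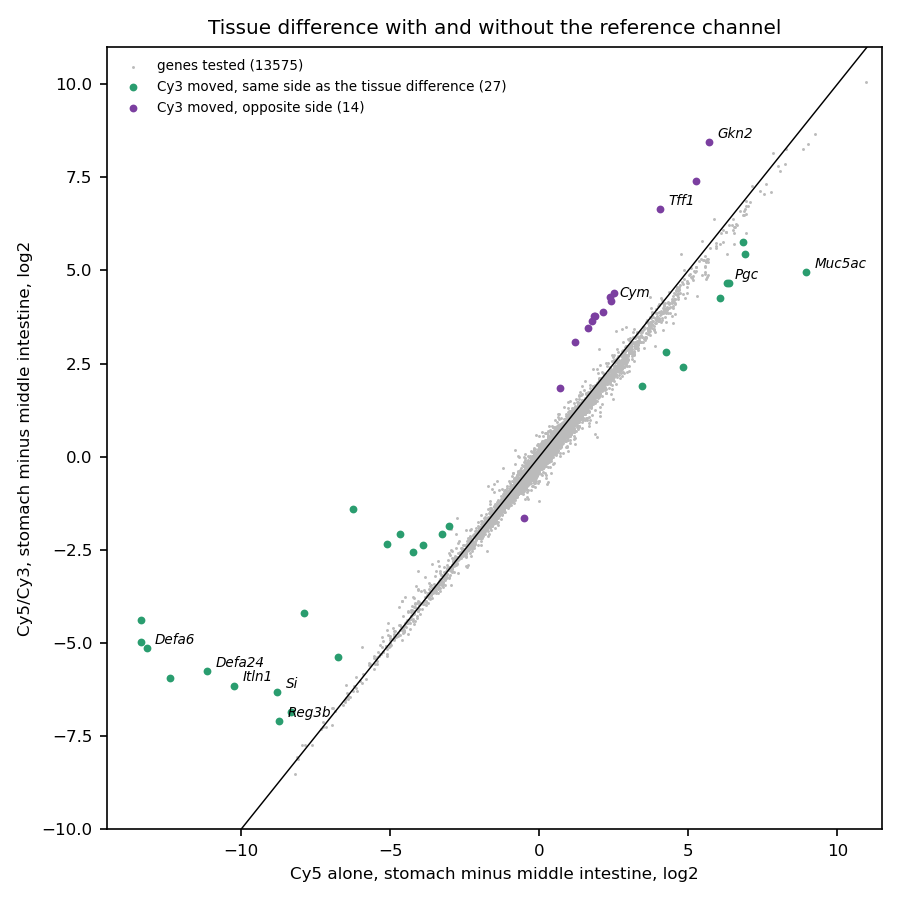
Stomach minus middle intestine difference in log2 of the Cy5 to Cy3 ratio (y axis) against that in log2 Cy5 alone (x axis) for the 13575 genes in OH rats, with the line of equality. Coloured are the 41 genes that passed and whose Cy3 reference differed by a log2 value of 1 or more between the slides, 27 on the same side as the tissue difference (green, ratio smaller than Cy5) and 14 on the opposite side (purple).

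The reference channel, labelled as the same pool on every array, was compared between the slides in the same way. By limma, 211 of 21174 probes (0.997%) differed in Cy3, and the median Cy3 difference was 0.11. Among the 5660 genes that differed in the ratio, 41 had a Cy3 difference of 1 or more. The 14 genes whose Cy3 went against the tissue, among them Gkn1, Gkn2, Tff1 and Cym, had a median log2 Cy5 of 14.9 against 8.53 over all genes. They were bright except Mageb3, with a mean log2 Cy5 of 3.84. The 27 genes whose Cy3 went with the tissue included Muc5ac, Pgc, Itln1, Reg3g and 5 defensin genes. The 41 genes were taken by the size of the Cy3 difference alone, and that of Reg3g did not pass (limma adjusted p = 0.201). The number of probes that differed in Cy3 depended on the processing: it was 2942 after normexp background correction, of which 2643 were lower on the stomach slide, and 4738 after quantile normalization of Cy3, of which 2076 were lower. The part of the reference in these differences was not tested. With Cy5 alone, quantile-normalized between arrays, 7991 probes passed and 89.4% of the 8090 probes were among them, none with the opposite direction. Alternatives in Cy5 alone given below are of this setting. Cy5 differences given beside a ratio are of the processed signal without that normalization.

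Endocrine genes of the intestine were split. Of 10, 6 were higher in intestine, 1 was higher in stomach and 3 did not pass. Neurotensin (Nts) gave -5.61, -5.41, -5.22 and -5.39 in stomach and 0.99, 2.92, 0.01 and 1.77 in intestine (difference -6.83 ± 0.48, limma adjusted p = 4.44e-08). The incretin Gip, cholecystokinin (Cck) and secretin (Sct) were higher in intestine by 5.30, 5.16 and 4.61, and Gcg, which encodes the glucagon-like peptides, by 1.44. Without stomach replicate 1, 3 or 4 or intestine replicate 2 or 4, Gcg did not pass (-1.46 to -1.02). Isl1, a factor of many endocrine cells, was higher in stomach, with 1.39, 1.99, 1.97 and 1.89 against -2.72, -1.98, -2.98 and -2.20 (difference 4.28 ± 0.27). Peptide YY (Pyy) gave 1.12 ± 0.46 and did not pass.

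Among 20 intestinal transcription factors, 12 were higher in intestine, 2 were higher in stomach and 6 did not pass, with a median of -0.93. Cdx2 (rn4, chromosome 12, 8303557 to 8303616), which specifies the intestinal epithelium, had a smaller adjusted p than any other gene named here. Its ratios were -5.00, -5.05, -5.04 and -5.24 in stomach and 1.43, 1.38, 1.72 and 1.48 in intestine, close together in each tissue, and the difference was -6.59 ± 0.11 (limma adjusted p = 2.79e-14). Hnf4g differed by -5.24 ± 0.29 and Hnf4a by -1.46 ± 0.20. The nuclear receptors Nr1i3, Nr1h4 and Vdr were higher in intestine by 2.49, 1.99 and 1.88, with a Cy3 difference of -1.16 for Vdr. Gata4 (0.51 ± 0.13) and Klf4 (1.40 ± 0.30) were higher in stomach, but with scaling they gave 0.36 and 1.28 and did not pass. Cdx1 gave 0.29 ± 0.12 and did not pass. None of 13 Hox genes passed by limma, and 1 (Hoxb7, -0.91) had an unadjusted p under 0.05, which 9883 of the 21174 probes had. Their median was -0.22. The Hox mean varied within the stomach, with 0.25, -0.77, -1.40 and -0.19 against -0.61, -0.39, -0.03 and -0.01 in intestine. In C rats 6 of the 13 were higher in intestine by limma, with a median of -0.90.

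Crypt and Wnt target genes had no common direction. Of 16, 4 were higher in intestine and 5 in stomach. The crypt base gene Olfm4 gave -5.43, -4.91, -4.48 and -4.69 in stomach and 1.26, 1.09, 1.73 and 1.60 in intestine (difference -6.30 ± 0.21), the stem cell factor Ascl2 differed by -1.92 and the Wnt target Axin2 by -1.64. Lrig1, Ephb3, Ccnd1 and Prom1 were higher in stomach by 0.92, 1.02, 0.84 and 0.53, and Tnfrsf19, not well above background on any intestine array, was at least 6.01-fold higher. Prom1 did not pass without stomach replicate 1, 3 or 4 or intestine replicate 2 or 4 (0.39 to 0.53). The stem cell marker Lgr5 gave -0.56 ± 0.30 and did not pass (limma adjusted p = 0.156).

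Genes of DNA replication and mitosis differed little but almost uniformly, with 26 of 28 higher in intestine and a median of -0.76. The kinase Aurka gave -0.66, -0.64, -0.12 and -0.82 in stomach and 0.57, 0.63, 1.12 and 0.53 in intestine (difference -1.27 ± 0.18, limma adjusted p = 5.31e-05). Mki67 and Top2a of dividing cells were higher in intestine by 1.11 and 0.99, and the 6 helicase genes Mcm2 to Mcm7 by 0.67 to 0.97. Cenpf (-0.75 ± 0.31) and Kif20a (-0.24 ± 0.11) did not pass. The list mean was -0.71, -0.60, -0.40 and -0.87 on the stomach arrays and 0.02, 0.14, 0.33 and 0.16 on the intestine arrays, with no overlap. With the arrays scaled to a common spread, 15 passed.

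Lymphocyte genes were higher in intestine in 8 of 11 cases, with a median of -2.38. The chemokine Ccl25, which the intestinal epithelium makes and which draws lymphocytes, was not well above background on any stomach array and was at least 179-fold higher in intestine, where its ratios were 1.03, 1.87, 1.73 and 1.23. The T cell receptor chain Cd3g gave -3.18, -2.69, -2.42 and -2.88 and 1.82, 1.86, 2.29 and 2.40 (difference -4.88 ± 0.19), and the granzymes Gzma and Gzmb were higher in intestine by 3.36 and 2.38. The count was 3 among probes well above background on all 8 OH arrays. Of 15 mast cell and macrophage genes, 1 was higher in stomach (Fcer1a, 1.91 ± 0.46, not well above background on the intestine arrays) and 1 in intestine (C1qb, -0.75 ± 0.27), and C1qb did not pass without stomach replicate 2 or 3 or intestine replicate 2, 3 or 4 (-0.53 to -0.80). None of 7 erythroid genes passed by limma, also at an unadjusted p under 0.05 (0 genes), which 9883 of the 21174 probes had. Their means lay between -3.68 and -3.20 on all 8 arrays, so that both tissues were below the reference for them.

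Several gene families were divided between the tissues. Of 3 trefoil factors, Tff1 and Tff2 were higher in stomach and Tff3 in intestine. Of 8 mucins, 4 were higher in stomach and 3 in intestine. The stomach mucins were Muc1, Muc5ac, Mucl3 (5.60) and Muc16 (1.25 ± 0.45, limma adjusted p = 0.0387), and the intestinal ones were Muc2, Muc3 (-4.85) and Muc13 (-3.68). Muc16 did not pass without any 1 of 7 of the 8 OH arrays. Of 6 fatty acid binding proteins, Fabp3, Fabp4 and Fabp5 of muscle, fat and skin were higher in stomach by 5.39, 1.31 and 2.56, and Fabp1, Fabp2 and Fabp6 in intestine by 4.62, 3.45 and 5.40.

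Among the 15 claudins of the family, which form and tune tight junctions, 4 were higher in stomach and 7 in intestine. Cldn7 gave -4.01, -3.73, -3.85 and -4.02 in stomach and 1.29, 2.29, 1.14 and 1.07 in intestine (difference -5.35 ± 0.29), and Cldn3, Cldn2, Cldn4, Cldn14 and Cldn23 were also higher in intestine, by 5.11, 4.27, 3.48, 3.21 and 2.08. Cldn15, which makes sodium pores, was at least 28.4-fold higher in intestine. Higher in stomach were Cldn18, Cldn1 (1.24), Cldn20 (at least 2.5-fold) and Cldn19 (at least 1.46-fold). Cldn1 gave 0.39 and did not pass with another background correction (normexp), and Cldn19 gave 0.50 and did not pass in Cy5 alone.

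Of 29 keratins, 17 were higher in stomach and 2 in intestine. The suprabasal keratins Krt1, Krt10 and Krt13 of squamous epithelium differed by 4.80, 5.70 and 3.92, and the basal keratins Krt5, Krt14 and Krt15 by 2.79, 2.36 and 3.85. For Krt1 the stomach arrays gave 1.19, 1.96, 0.88 and 1.61 and the intestine arrays -3.31, -3.70, -3.12 and -3.44. Krt20 of differentiated gut epithelium was higher in intestine, with -2.04, -3.29, -2.11 and -3.53 in stomach and 1.89, 2.55, 2.01 and 1.56 in intestine (difference -4.74 ± 0.88, limma adjusted p = 6.77e-04). The keratins of simple epithelium were less divided: Krt18 gave 0.52 ± 0.16 and passed, though not without stomach replicate 2 or 3 or intestine replicate 3 (0.37 to 0.48), and Krt8 (0.71 ± 0.38) and Krt19 (0.71 ± 0.27) did not.

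Of the muscle and neuron lists, that of smooth muscle varied widely among the OH stomach arrays, where its mean had an SD of 1.41. The means of enteric neuron and glia genes and of striated muscle genes had SDs of 0.50 and 0.53 there. These were smaller than the SD of 0.80 of chief cell genes on the same arrays. The mean of 15 smooth muscle genes was 1.01, -1.17, -2.15 and 0.22 on the 4 OH stomach arrays and -0.31, -0.49, 0.15 and 0.07 on the 4 intestine arrays. The stomach arrays thus spanned a wide range, the intestine arrays lay within it, and of the 15 genes Pcp4 alone passed (-1.97 ± 0.55, limma adjusted p = 0.011). With the 8 OH arrays alone in the fit Pcp4 did not pass (limma adjusted p = 0.0595). Genes of enteric neurons and glia were likewise highest on the first stomach array, with means of 0.40, -0.69, -0.44 and 0.12, and 4 of 16 were higher in intestine, among them Elavl4 (-1.03), Vip (-0.87) and Prph (-0.78). Without stomach replicate 2, 3 or 4, or intestine replicate 3 or 4, 1 of the 16 passed. Without stomach replicate 1, 3 of the 15 smooth muscle genes were higher in intestine. Striated muscle genes gave means of 0.56, -0.30, -0.42 and 0.55 in stomach and -0.96, -0.93, -0.72 and -0.88 in intestine, and 3 of 16 were higher in stomach: Tnnc2 (3.03 ± 0.98), Myh8 (2.31 ± 0.77) and Myh4 (at least 1.4-fold). Without stomach replicate 1, 2 or 4, or intestine replicate 2 or 4, the count was 1, with the 8 OH arrays alone in the fit it was 6, with array weights 5, with normexp or in Cy5 alone 1 and with scaling 0. Their part in the differences of other genes was not tested.

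**Figure D4:**
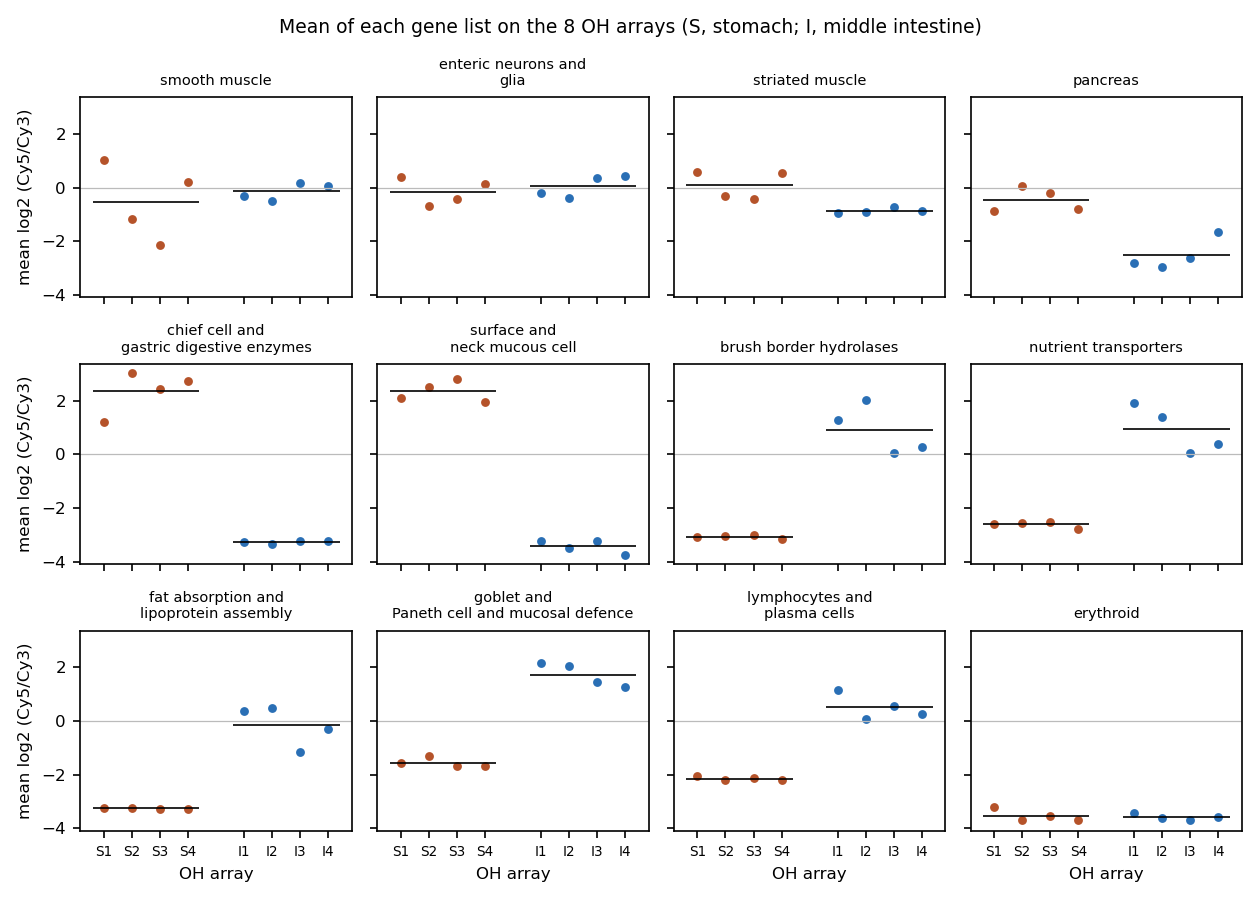
Mean log2 ratio of tissue to reference (y axis) of 12 gene lists on the 4 OH stomach arrays (S1 to S4, orange) and the 4 OH middle intestine arrays (I1 to I4, blue), with the mean of each group as a line. Smooth muscle genes spread from -2.15 to 1.01 over the stomach arrays, while the 6 epithelial lists do not overlap between the tissues.

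Genes of the pancreas were higher in stomach in 10 of 17 cases, with a median of 1.57. Ptf1a, a transcription factor of acinar cells, was not well above background on any intestine array and was at least 113-fold higher in stomach, and colipase (Clps) and the elastase Cela3b differed by 6.21 ± 0.65 and 5.72 ± 0.31. The elastase Cela1 was at least 30.3-fold higher. The carboxypeptidase Cpa1 and chymotrypsinogen (Ctrb1) were higher in stomach by 2.05 and 1.57. Trypsinogen (Prss1) gave -1.74 ± 0.70 and amylase (Amy2a3) 0.79 ± 0.66, and neither passed. Without intestine replicate 4, amylase was higher in stomach by 1.62 and passed, and without intestine replicate 3, Prss1 gave -2.31 and passed. The list means were -0.87, 0.04, -0.20 and -0.82 in stomach and -2.83, -2.95, -2.62 and -1.65 in intestine, where the fourth array was the highest. Among probes well above background on all 8 OH arrays, 5 passed.

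Single genes also spread widely within a tissue. In stomach, the adipocyte genes Cfd and Retn gave 2.39, -3.0, 1.99 and 2.14 and 1.71, -2.92, 2.13 and 1.94, both low on the second array alone. Without stomach replicate 2, Cfd was higher in stomach by 2.75 and Retn by 1.85, and both passed. Gastrin and Tff2, a trefoil peptide of neck and antral gland cells, were both lowest on the fourth stomach array, with 2.10, 1.29, 2.76 and -0.31 for Tff2. The defensins Defal1 and Defa6 were highest on the second stomach array, with 1.93, 5.11, 0.98 and -0.27 and -0.40, 4.61, 2.02 and 0.56. For both genes both channels were far lower on the stomach slide, by -13.36 and -13.17 in Cy5 and by -8.37 and -8.02 in Cy3. Whether the spread of their stomach ratios came from weak signal was not tested. In intestine, Pdx1, a factor of the proximal duodenum and pancreas, gave 1.67, -2.99, -2.98 and -2.38, the alcohol dehydrogenase Adh6a 1.07, -3.45, -3.11 and -0.41 and the defence gene Lypd8l2 6.44, 3.53, 3.68 and 1.54. The first intestine array was the highest of the 4 in these 3 genes, as in S100g. Neither Pdx1 (-0.30 ± 1.02) nor Adh6a (2.46 ± 1.11) passed between the tissues. Without stomach replicate 3 or intestine replicate 1, Adh6a passed, with 3.15 and 3.31.

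Beyond the lists, the 10 genes with the largest differences towards stomach and the 10 towards intestine, taken from genes that passed with no overlap between arrays, held genes of other functions. On the stomach side were the retinal and alcohol oxidising enzymes Aox4 (at least 245-fold) and Adh7 (8.27 ± 0.61), the disulphide isomerase Pdia2 (7.86 ± 0.40), the saposin-like gene Psapl1 (7.82 ± 0.53), the small membrane protein gene Smim38 (8.15 ± 0.28) and S100a7l2 (at least 138-fold). Aox4 ratios were 3.97, 4.91, 3.86 and 4.41 in stomach and -4.12, -4.21, -3.97 and -4.16 in intestine. Adh7 gave 4.10, 4.22, 3.99 and 3.18 and -2.17, -5.02, -5.07 and -5.33, with the first intestine array well above the other 3.

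On the intestine side Cdh17, the liver-intestine cadherin that joins enterocytes, led with -6.23, -5.91, -6.40 and -6.62 in stomach and 2.56, 2.49, 2.15 and 1.75 in intestine (difference -8.53 ± 0.33, limma adjusted p = 8.97e-11). The magnesium channel Trpm6, the adhesion receptor Adgrg7 and the membrane protein Clrn3 were not well above background on any stomach array and were at least 158, 217 and 161-fold higher in intestine. The chloride channel regulator Clca4 (-7.73 ± 0.45), the epithelial gene Phgr1 (-7.25 ± 0.39) and Lypd8l2 (-8.07 ± 1.12) completed the group with Ccl25, Mme and S100g.

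The tissue difference of OH rats was set beside that of C rats, in which 9517 of 21174 probes (44.9%) passed. Of the 8090 probes called in OH, 6596 (81.5%) were also called in C, 6593 of them in the same direction, and these were 69.3% of the C calls. Across the 21174 probes, the OH and C differences had Pearson's r of 0.94, Spearman's rank correlation of 0.86 and a slope of 0.89 of OH on C, as a description of probes that share the array design and the reference pool. The OH slides and the C slides were scanned on different days, so the day of scanning cannot be told apart from obestatin itself. By the limma interaction, which tests whether the tissue difference itself differed between OH and C, no probe passed. At an unadjusted p under 0.05 there were 1238 probes (5.85%), and the smallest adjusted p was 0.39.

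Most lists had like medians in OH and C, such as 4.66 and 4.80 for chief cell genes, 4.46 and 4.51 for parietal cell genes, -3.72 and -3.58 for brush border hydrolases, and -0.76 and -0.85 for replication genes. The 4 lists whose medians differed most were striated muscle (0.93 in OH and 3.13 in C), smooth muscle (-0.24 and -1.36), forestomach epithelium (2.68 and 3.60) and goblet and Paneth genes (-3.68 and -2.83). Taken per gene, the OH difference minus the C difference had medians of -2.25, 1.16, -0.89 and 0.04 in these lists. In surface and neck mucous cell genes it was -0.85, with list medians of 6.16 and 6.87. An unadjusted limma interaction p under 0.05 was found in 5 of 16, 0 of 15, 7 of 22 and 3 of 21 members. It was found in 6 of 13 mucous cell genes, against 5.85% of all probes. Ghrl differed between the tissues by 4.31 in OH and 4.45 in C, Mboat4 by 2.91 and 2.80, and Cdx2 by -6.59 and -6.89.

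The 5 genes with the smallest interaction p were Net1, Chmp4bl1, Ccng2, Tff1 and Gkn1. The tissue difference of Net1, a guanine nucleotide exchange factor, was -0.13 in OH and 0.98 in C, and that of Ccng2, a cyclin of quiescent cells, -1.17 and -0.09. Chmp4bl1 gave -1.66 and -0.05, with a Cy3 difference of 1.16 between the OH slides. Tff1 gave 6.64 and 8.14, and Gkn1 7.39 and 9.14, with Cy3 differences of -2.59 and -2.13 between the OH slides. None of the 5 passed the limma interaction (adjusted p of 0.394 to 0.693). This count depended on single arrays. Without C stomach replicate 2, 68 probes of 52 genes passed, 64 of them with a lower stomach minus intestine difference in OH, and 9 of the 16 striated muscle genes were among them. Without OH stomach replicate 3, 1 probe passed, that of Chmp4bl1.

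**Figure D5:**
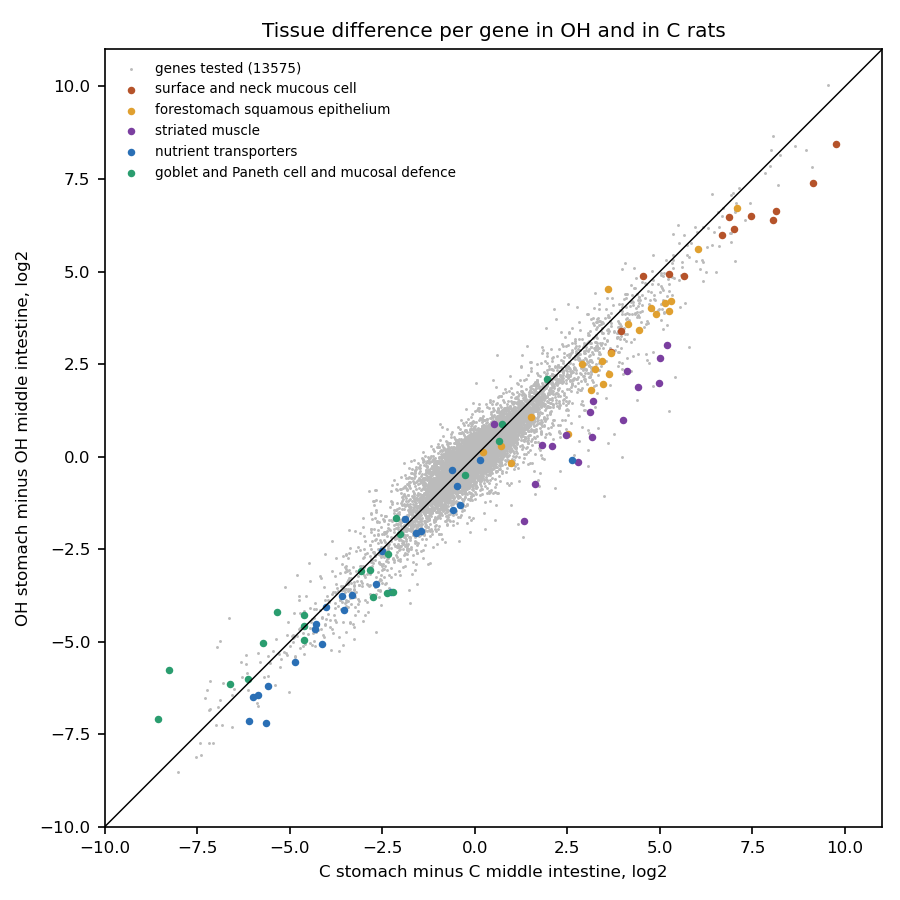
Stomach minus middle intestine difference in OH rats (y axis, log2) against that in C rats (x axis, log2) for 13575 genes, with the line of equality and members of 5 lists in colour. Striated muscle genes (purple) lie mostly below the line, with medians of 0.93 in OH and 3.13 in C, while nutrient transporters (blue) and goblet and Paneth genes (green) lie on both sides of it. Per gene, the OH minus C value had a median of -0.85 in surface and neck mucous cell genes and -0.89 in forestomach genes.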

How the data were processed

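Total RNA of stomach and middle intestine was hybridised in 4 groups of 4 two-colour Agilent rat arrays, with 1 rat per array in Cy5, the reference pool in Cy3 and no dye swap. The authors deposited the intensity of each of the 62976 spots of an array as the scanner software read it, processed signals included, which per the file headers were background-subtracted, detrended and Lowess dye-normalized. The deposited value table held the log10 ratios of the same arrays. These ratios were equal to those of the scanner files on 15 arrays, and on OH stomach replicate 1, whose scanner file was rounded, they differed by at most 0.005 on the log10 scale. The labels name Agilent Feature Extraction 10.7.3.1 and the headers 10.10.1.1.

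The log2 ratio of processed Cy5 to processed Cy3 was used without further normalization. Control spots and outlier spots were left out, and spots of a probe were averaged. Of 30367 probes, 21174 were tested: in at least 1 of the groups the software had marked the probe's Cy5 signal as well above background on each of the 4 arrays, and every group had 3 or more values. The other 9193 were left out. Accessions were named through the RefSeq table of build GRCr8 (13850 of 16240 tested accessions matched), and the array design used rn4. A gene was represented by its probe with the highest mean Cy5. Of 2423 genes with several probes, 1040 passed by that probe, and in 933 of these the others had the same sign. A bound ("at least N-fold") sets the mean Cy5 signal, quantile-normalized over both channels of all arrays, of the brighter group against, per array of the dimmer group, the higher of its own signal and the lowest signal well above background.

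A limma model (limma 3.58.1, R 4.3.3, and data.table, version 1.17.8) with 1 mean per group was fitted to all 16 arrays (12 residual and 2.47 prior degrees of freedom), and p-values were adjusted by Benjamini-Hochberg over the 21174 probes. On simulated data with 200 changed probes of 21174, the test of OH stomach against OH middle intestine recovered 58% at a log2 change of 1 and 90.5% at 2, and the interaction 28% and 79.5%. False calls between the tissues were 7 and 16. In the data 8090 probes were called, far more than were changed in the simulation. Recovery after Benjamini-Hochberg adjustment depends on that number, so these shares do not give the power of the tissue comparison. No set test was run. Promoters were found for 81.7% of genes tested and for 79.3% and 78.7% of those higher in stomach and in intestine by 2 or more, so motif shares were not compared between these sets. The number of arrays limits the precision.

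Named were the 10 genes with the largest difference to each side, up to 5 members of each list with the largest difference that passed and up to 3 that passed against its median, the measured ghrelin and obestatin axis, the 5 smallest interaction p-values, the 5 widest spreads per tissue, members of divided families, and other list members needed to say what a list holds. The comparison, its gene lists and the genes named were chosen with earlier results of these data known. Alternatives covered background correction, the deposited log10 ratios, Cy5 alone, scaling, centring, the filter, outlier spots, the arrays in the fit, array weights, moderation, the threshold, the test, 1 probe per gene, the replicate number as a block and leaving out each array. Some list members are not reported here by name and stay in the counts.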

Additional observations from a re-analysis of the deposited data

Results flagged for a closer look

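In 32 of 586 groups of 4 OH arrays, 536 of single genes and 50 of list means, the highest or lowest array stood apart: its distance to the next array, divided by the range of all 4, passed Dixon's critical value. Chance gives about 29.3 of 586, and no list mean was among the 32. This distance over the range is given for each gene. On stomach replicate 1, Ccnd1 (0.956), Isl1 (0.837) and Nr1h4 (0.872) were lower than on the other 3 stomach arrays. On stomach replicate 2, the adipocyte genes Cfd (0.925) and Retn (0.916) were lower and Cubn (0.863) was higher. On stomach replicate 3, Adh6a (0.832) and Cd3e (0.899) were lower, and Krt25 (0.879), Mucl1 (0.838), Slc13a1 (0.864) and Slc4a2 (0.926) higher. On stomach replicate 4, gastrin, Gast (0.902), was lower, as were Cck (0.839), Cenpf (0.885), Cldn2 (0.965), Klf4 (0.9), Krt7 (0.877) and Mcm4 (0.87), and Chrm3 (0.843) was higher.

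In middle intestine, replicate 1 was higher for Adh7 (0.904) and Pdx1 (0.87), and replicate 2 for the enterocyte genes Dpp4 (0.893), Guca2a (0.879) and Slc2a5 (0.854). Replicate 3 was lower for Chia (0.9) and Krt18 (0.927) and higher for Defa24 (0.893) and Krt7 (0.843). Replicate 4 was higher for amylase, Amy2a3 (0.852), Cldn5 (0.842) and Pcsk2 (0.849). Gast, Cfd, Retn, Amy2a3, Adh6a, Krt18 and Pcsk2 changed sides of the threshold without the array that stood apart or without others, as given with their values above.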

How the results depend on the processing

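The 8090 probes that differed between OH stomach and OH middle intestine were 5459 with the arrays scaled to a common spread, 7991 in Cy5 alone and 8967 without a filter on dim probes, and 6897 to 7908 without 1 OH array; a test against a log2 difference of 1 instead of 0 left 1473. In none of the settings compared did a shared probe change direction. The replicate block, with the replicate number as a block, gave 8180, and changed the call of 8 named genes: C1qb no longer passed, and Adh6a, Cd36, Fcgrt, Krt25, Krt87, Nkx6-3 and Prss1 did. The numbers pair no samples by the labels; same-numbered deviations correlated at -0.12, 0.20, 0.02 and 0.32, and 2 of 4 OH stomach arrays correlated best with their own number. Among C arrays the same correlations were 0.14, 0.17, 0.06 and 0.25, against at most 0.08 between different numbers, and 3 of 4 correlated best with their own number; not every pair exceeded 0.1 in either treatment. The interaction count was 0 under the replicate block and in the alternatives of processing, and 0 to 68 without 1 array. The 211 probes that differed in Cy3, 143 of them higher on the stomach slide, became 2942 after normexp (299 higher), 4738 after quantile normalization (2662 higher), 133 without a filter (58 higher), 344 with the 8 OH arrays alone, 340 under the replicate block and 124 to 630 without 1 array; the count moved by over 1.5 times without stomach replicate 2, 3 or 4 or intestine replicate 1, 2 or 3.

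The filter to probes well above background on all 8 OH arrays held 203 of the 268 named genes, and the others were not tested there. Of 216 named genes that passed, 164 also did in each of the 20 alternatives run for genes in which they were tested, and none reversed. Scaling ended 46 of these calls, more than any other setting: besides those given above, Aldh18a1, Amn, Apoa1, Apoa4, Apob, Apoc2, Apoc3, Mttp, Fabp1, Lct, Sct, Gcg, Gast, Chga, Pcsk2, Slc26a7, Ctrb1, Gzma, Gzmb, Cldn14, Muc16, Nr1h4, Onecut2, Spdef, Prom1, Krt4, Krt18, Krt31, Krt80, Stfa3, Elavl4, Prph, C1qb, Myh4, Myh8, Tnnc2 and Mcm2 to Mcm6 were among them. With the 8 OH arrays alone, C1qb, Gcg, Krt18, Krt80, Mcm6, Pcsk2, Prom1, Prph and Vip also lost theirs, in Cy5 alone Chmp4bl1, Gast, Krt33b, Muc16, Myh4, Myh8 and Prph, with normexp Myh4, Myh8 and Prph, without a filter C1qb, Gast, Muc16, Myh4, Prom1, Prph and Vip, with array weights Gast and Gcg, with trend and robust C1qb, Krt80 and Prom1, and with centring Prom1. The sign changed for 15 genes that had not passed. With normexp, Ass1 gave -0.0686 and Ly6d -0.14. In Cy5 alone, Chrm3 gave -0.12, Net1 0.0324, Slc6a20a 0.13 and Tp63 -0.0573. With scaling, Chrm3 gave -0.0546, Cldn9 -0.066, Krt81 -0.0929, Pdx1 0.20, Slc4a2 -0.0336 and Trpv6 0.48. With array weights, Ass1 gave -0.0447, Krt81 -0.0064, Net1 0.0256, Retn -0.0523 and Slc6a20a 0.0197. Without 1 array, Ass1 ranged from -0.0453 to 0.21, Krt81 from -0.0442 to 0.19, Mucl1 from -0.18 to 0.0444, Osr1 from -0.49 to 0.10, Pdx1 from -0.76 to 0.81, Slc4a2 from -0.00125 to 0.29, Slc6a20a from -0.47 to 0.11, Tgm3 from -0.58 to 0.31 and Trpv6 from -0.90 to 1.58. Without intestine replicate 3, Fcgrt (-1.68), Anpep (-1.78) and Six2 (0.72) passed, without intestine replicate 2 Krt8 (1.04), Krt19 (0.94), Cenpf (-0.91) and Cd36 (0.85), without stomach replicate 1 Hoxb7 (-1.26) and Kif20a (-0.34), without stomach replicate 3 Cd36 (0.84), without stomach replicate 4 Nkx6-3 (0.79), and without intestine replicate 1, 3 or 4 Tmprss15 (-3.51 to -1.10). Of list counts, 471 of 500 stayed within 1.5 times; of those not given above, the parietal count was 8 and the mast cell and macrophage count in stomach 0 among probes well above background on all 8 OH arrays, and the latter 2 without intestine replicate 3. The neuron count was 2 without a filter and 2 with the 8 OH arrays alone. With scaling the neuron count was 1, the lymphocyte count 5 and the ghrelin axis count 3. Causes of these changes were not tested. The number of arrays and the signal over background limit small differences: 9193 probes were too dim to test.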

Other observations

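Some genes outside the lists were far apart between the OH tissues and also had a Cy3 difference of 1 or more between the slides. Cga, the alpha subunit of glycoprotein hormones, gave -6.84 as a ratio and -8.33 in Cy5 alone, with a Cy3 difference of -1.49, and the matrix protease Mmp7 of Paneth cells gave -5.39 and -6.75. Calca, the calcitonin gene, and the aldehyde dehydrogenase Aldh3a1 were higher in stomach, by 4.27 and 4.66 as ratios, with Cy3 differences of 1.78 and 1.70. The Cy3 difference of Calca did not pass (limma adjusted p = 0.0679). Among the bright genes whose Cy3 was lower on the stomach slide were genes of none of the lists, Pura (3.09), Glra2 (3.63), Ptprn2 (3.45), Tmem47 (3.78) and Extl3 (3.77), and their Cy5 differences alone were 1.19, 1.77, 1.65, 1.82 and 1.88. The enteric defensin Defa9 gave -5.95 as a ratio, -12.39 in Cy5 and -6.43 in Cy3. In C rats the means of the erythroid genes were -3.49 in stomach and -3.84 in middle intestine, also below the reference, and those of the striated muscle genes 2.33 and -0.78.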
